A study of Mus musculus with 4 samples.

Results

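The genes described here are 34 mouse genes that respond to type I interferon, taken by symbol from a fixed list, and all 34 were found among the 31253 genes of the count table. The cells are F4/80-positive cells sorted from the peritoneal cavity (F4/80 is the surface protein encoded by Adgre1, used to sort mouse macrophages), profiled by droplet single-cell RNA sequencing with a 3' kit that counts molecules by unique molecular identifiers (UMIs). Mice of 4 groups were studied at 24 weeks of age, each as 1 sample. The first was C57BL/6, wild type for Apoe, on normal diet. The second was Apoe-/-, lacking apolipoprotein E and on the same background, on normal diet. The third was Apoe-/- after a high-fat diet for 20 weeks and a return to normal diet. The fourth was Apoe-/- with that diet and injected with the monoclonal antibody named anti-CVI-mAb, 3 mg into the peritoneal cavity. Mice of the other 3 groups received buffer by the same route. The number of mice behind each sample is not stated in the labels.

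The deposited table holds 4 libraries, told apart by the barcode suffixes 1 to 4. No label or file header ties a suffix to a group. The libraries are therefore called 1 to 4, none is assigned to a group, and no effect of genotype, diet or antibody is given. With 1 library per group there is also no replicate, so every interval below is an exact 95% interval for counting error only (Poisson for levels, Clopper-Pearson for shares, conditional binomial for ratios), and no p-value was computed. The spread between cells is left out, so the intervals are too narrow where UMIs cluster in cells. A lack of overlap thus describes counts only. The limit given for a count of 0 is not an exact interval but the level of 3 counts.

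Type I interferons are secreted proteins that cells release on sensing viral or misplaced nucleic acid. They bind the receptor made of Ifnar1 and Ifnar2, whose kinases Jak1 and Tyk2 activate Stat2. With Irf9 it is part of the complex ISGF3, which binds the interferon-stimulated response element (ISRE) in promoters and switches on genes that block viral replication, sense nucleic acid or tune the response itself. Macrophages hold a basal level of many of these genes without infection.

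The ISRE can be read in the promoters of Isg15 and of 4 of the 5 members that are used below to split the macrophages. The 250 bases before the transcript start are shown from RefSeq (GRCm38.p6), 5' to 3' on the strand of the gene, with matches to the ISRE core in capitals. The core was searched on both strands as GAAA and GAAA with any 2 bases between them, which reads TTTC and TTTC on the other strand.

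Isg15, chr4:156200819-156201068, minus strand: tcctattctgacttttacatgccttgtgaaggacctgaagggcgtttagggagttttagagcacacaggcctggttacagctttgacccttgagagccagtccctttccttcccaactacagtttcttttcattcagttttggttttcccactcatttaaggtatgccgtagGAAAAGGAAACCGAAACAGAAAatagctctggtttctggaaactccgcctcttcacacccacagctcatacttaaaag
Ifit1, chr19:34640639-34640888, plus strand: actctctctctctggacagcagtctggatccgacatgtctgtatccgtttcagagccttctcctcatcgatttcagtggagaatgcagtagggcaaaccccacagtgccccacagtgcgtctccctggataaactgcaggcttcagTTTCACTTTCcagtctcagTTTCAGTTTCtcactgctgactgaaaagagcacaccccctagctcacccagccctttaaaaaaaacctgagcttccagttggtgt
Ifit3, chr19:34583279-34583528, plus strand: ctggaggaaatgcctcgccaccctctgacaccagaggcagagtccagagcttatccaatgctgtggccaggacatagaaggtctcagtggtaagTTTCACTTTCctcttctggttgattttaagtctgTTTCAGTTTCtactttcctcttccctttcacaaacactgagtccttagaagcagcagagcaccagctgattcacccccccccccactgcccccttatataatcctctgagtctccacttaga
Ifit3b, chr19:34607707-34607956, plus strand: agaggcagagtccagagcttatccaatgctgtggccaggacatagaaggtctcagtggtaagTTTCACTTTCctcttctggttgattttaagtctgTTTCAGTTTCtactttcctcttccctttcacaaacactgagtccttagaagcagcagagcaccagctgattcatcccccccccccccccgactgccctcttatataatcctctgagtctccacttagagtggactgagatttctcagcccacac
Rsad2, chr12:26456453-26456702, minus strand: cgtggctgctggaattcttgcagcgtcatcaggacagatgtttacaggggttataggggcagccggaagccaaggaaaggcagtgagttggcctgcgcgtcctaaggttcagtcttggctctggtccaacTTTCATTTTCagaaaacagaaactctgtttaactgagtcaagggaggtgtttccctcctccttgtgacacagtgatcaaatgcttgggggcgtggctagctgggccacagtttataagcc

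In Ifit1 the 2 matches began 104 and 85 bases before the start. Ifit3 and Ifit3b carried the same pair of motif matches in almost the same surroundings, beginning 156 and 122 bases before the start in Ifit3 and 188 and 154 bases before it in Ifit3b. Rsad2 held 1 match at 120 bases, and Isg15 held 3 overlapping matches beginning between 78 and 66 bases before the start. RefSeq windows from 250 bases before to 50 after the start were at hand for 27 of the 34 members (not for Parp14, Ifi27l2a, Oas2, Rtp4, Usp18, Parp9 and Dhx58). The ISRE core was present in 14 of these 27 (51.9%), against 3.99% of all 27025 genes with a window. Ifit2, the fifth gene of the split, held none. Besides the 5 shown, the 14 were Oas1a, Oas3, Stat2, Bst2, Ifih1, Ddx58, Trim30a, Cxcl10 and Eif2ak2. The gamma-activated site TTCNNNGAA, another element of interferon-induced promoters, was present in 6 of 27 members (22.2%) and in 9.55% of all genes. A match describes the letters of the window and shows no binding.

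Several members lie side by side on GRCm38 (GENCODE M21 gene models, all protein-coding). Ifit2, Ifit3, Ifit3b and Ifit1 follow each other on chromosome 19 between 34550694 and 34650009. Oas2, Oas3 and Oas1a lie on chromosome 5 between 120730333 and 120907521, with Oasl2 and Oasl1 at 114896936 to 114937915 on the same chromosome. Rsad2 (26442746 to 26456452) and Cmpk2 (26469204 to 26479837) are divergent neighbours on chromosome 12. Parp14, Dtx3l and Parp9 lie on chromosome 16 between 35832874 and 35972605, and the gene models of Parp9 and Dtx3l overlap on opposite strands. No source used here says whether counting was stranded, so it is not known whether reads in that overlap were told apart. Irf9 was the only member whose gene model overlapped another counted gene, Rnf31, on the same strand. The split of reads where these gene models overlap is uncertain. The longest transcripts of Ifit3 and Ifit3b were 98.0% identical over 1697 aligned bases, so the split of counts between them is uncertain.

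Barcodes with fewer than 500 genes or over 10% mitochondrial UMIs were dropped, leaving 20864 (3611 to 6023 per library). Library 1 stands apart: this filter removed 42.3% of its barcodes against 11.0 to 19.3% elsewhere, and its kept cells had a median of 8195 UMIs against 11515 to 13306. Of 20829 distinct kept barcode sequences, 35 occurred in more than 1 library. Macrophages (at least 2 Adgre1 UMIs and none of Cd79a or Cd3e) numbered 1538, 4218, 4334 and 5017 in libraries 1 to 4, and all 7 macrophage markers were detected in each. The F4/80 sort also held B cells (at least 3 Cd79a UMIs, no Adgre1; 1754) and T cells (at least 2 Cd3 UMIs, no Adgre1; 517), of which 27 met both rules. Apoe itself, the gene deleted in 3 of the 4 groups, stood at 30.1, 863, 738 and 29778 CPM in macrophages of libraries 1 to 4; no library was assigned from it.

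Levels are UMIs per 1000000 UMIs of a class (CPM). In macrophages the 34 genes together made up 1800.5 CPM in library 1 (interval 1778 to 1823), 1741 in library 2 (1730 to 1752), 1531 in library 3 (1522 to 1541) and 843 in library 4 (836 to 850). Library 4 was lowest and no intervals overlapped. Ifi27l2a, which encodes a small protein strongly induced by interferon, gave the largest share of the sum, 26.6, 27.2, 35.2 and 21.3% in libraries 1 to 4. Without it the sums were 1322, 1268, 992 and 663 CPM, in the same order.

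Member by member, 28 of 34 had their lowest macrophage level in library 4, and in 25 of these the library 4 interval lay below all others. The other 6 were Isg15, Ifi35, Isg20, Cxcl10 and Ifit2, lowest in library 1, and Ifit3b, lowest in library 3. The share over all genes was not counted for the 28 or the 25, so neither is read as particular to the members. Of the 22 members that reached 20 CPM in at least 1 library, 21 were lowest in library 4, against a background of 46.4% of the 6300 genes at that level. A ratio of at least 2 between the highest and lowest library was seen in 16 of the 22 (background 30.7%), and 15 combined both features (background 15.8%). Since a gene can reach 20 CPM through its high library alone, the count was repeated on genes with a mean of 20 CPM over libraries. It then gave 17 of 18 lowest in library 4 (45.5%) and 13 of 18 at least 2-fold apart (27.6%). All genes shifted between libraries too: the median log2 ratio of a library to the mean of the others was 0.45, -0.02, -0.21 and -0.29 over all genes, and 0.51, 0.34, -0.26 and -0.94 over the 22 members. Relative to the median gene, 18 of the 22 members were lowest in library 4 (20.3%) and 9 of the 22 were at least 2-fold apart between libraries (20.8%). Without library 1 the 2-fold count was 10 of 21 (background 4.15%). Without library 4 it was 6 of 22, near the background of 25.5%.

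**Figure D1:**
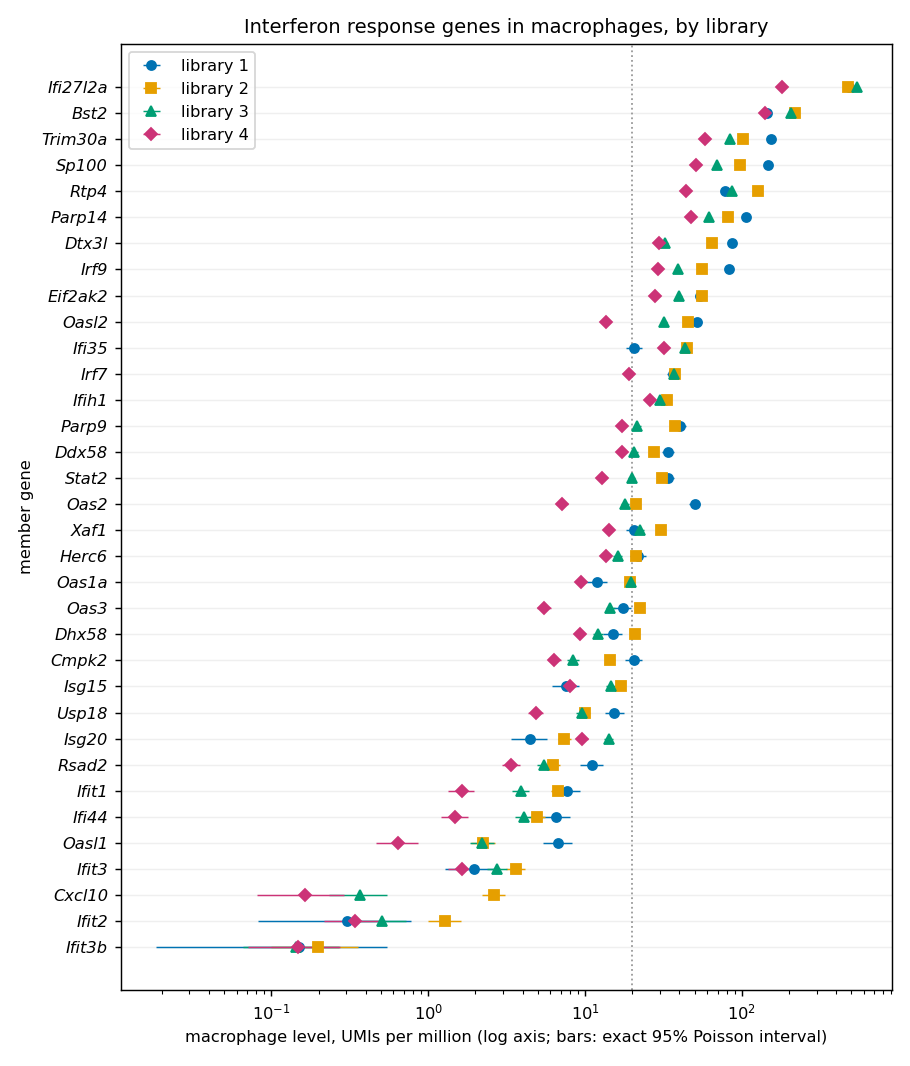
Level of each member in macrophages by library, in CPM on a log axis, ordered by mean level, with bars for the exact 95% Poisson interval and a dotted line at 20 CPM. The library 4 diamonds are leftmost for 28 of the 34 genes, and Cxcl10 of library 1, at 0, has no point.

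Among the transcription factors, Irf9, the DNA-binding part of ISGF3, stood at 83.0, 55.6, 39.0 and 29.3 CPM in libraries 1 to 4, with no overlap between intervals. Irf7, the factor that amplifies interferon production, was at 36.4, 37.3, 37.0 and 19.1 CPM. Its first 3 values overlapped and only library 4 lay apart. Stat2, another part of ISGF3, was at 33.9, 31.0, 19.8 and 12.9 CPM, with overlap only between libraries 1 and 2. The highest level was 2.83-fold the lowest for Irf9, 1.95-fold for Irf7 and 2.62-fold for Stat2.

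Of the RNA sensors, Eif2ak2, the kinase PKR that stops translation on double-stranded RNA, was measured at 53.8, 55.7, 39.8 and 28 CPM, with overlap only between libraries 1 and 2. Ifih1, which encodes MDA5, varied least of the members at 20 CPM, at 32.1, 33.4, 30.2 and 25.8 CPM (1.29-fold). Its library 4 interval still lay below the other 3. Ddx58, which encodes RIG-I, stood at 33.9, 27.4, 20.6 and 17.1 CPM, and Dhx58, which encodes the related protein LGP2, between 9.30 in library 4 and 20.8 in library 2.

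The 2'-5' oligoadenylate synthetase family, whose product activates the RNA-degrading enzyme RNase L, held the members with the 3 widest ranges among the 22 at 20 CPM, Oas2, Oas3 and Oasl2. Oas2 was at 50.1, 21.2, 18.1 and 7.16 CPM in libraries 1 to 4, a 6.99-fold range with no overlapping intervals. Oas3 was at 17.3, 22.5, 14.5 and 5.44 CPM (4.13-fold), with libraries 1 and 3 overlapping. Oasl2, a family member with ubiquitin-like domains, was at 52.0, 45.5, 31.9 and 13.6 CPM (3.83-fold), and again no intervals overlapped. All 5 family members, with Oas1a (9.42 to 19.6 CPM) and Oasl1 (0.638 to 6.71 CPM), were lowest in library 4, but the libraries in which they were highest differed: library 1 for Oas2, Oasl2 and Oasl1, library 2 for Oas3 and library 3 for Oas1a.

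The genes most often used to mark an interferon response were scarce. Isg15, a ubiquitin-like modifier, was at 7.54, 16.9, 14.6 and 8.02 CPM, and libraries 1 and 4 overlapped at the bottom. Ifit1, which binds foreign RNA caps, was at 7.69, 6.72, 3.88 and 1.63 CPM. Rsad2, which encodes the antiviral enzyme viperin, was at 11.0, 6.23, 5.50 and 3.38 CPM. Both were lowest in library 4 with no overlap there. The neighbour of Rsad2, Cmpk2, a mitochondrial nucleotide kinase, was at 20.4, 14.4, 8.34 and 6.38 CPM (3.20-fold, no overlap). Ifit2, Ifit3 and Ifit3b stayed between 0.143 and 3.63 CPM, and Cxcl10, a chemokine that draws T cells, was at 0 in library 1 and at 2.62, 0.365 and 0.163 CPM in the others. The count of 0 in library 1 allows up to 0.226 CPM (3 UMIs). Of the 145 Cxcl10 UMIs of library 2, 127 lay in the 51 macrophages counted as high below, so that level rests on few cells. In all, 12 members stayed under 20 CPM in every library and 7 of those under 10 CPM.

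The modifiers of the ubiquitin and ADP-ribose systems were among the better expressed members. Trim30a, a TRIM-family protein, was at 154, 101, 84.0 and 58.2 CPM. Parp14, an ADP-ribosyltransferase, was at 106, 81.2, 61.9 and 47.4 CPM. Dtx3l, a ubiquitin ligase that pairs with Parp9, was at 86.3, 64.4, 32.3 and 29.5 CPM (2.93-fold). All 3 followed the same order from library 1 down to library 4 with no overlap. Parp9 itself was at 40.6, 37.4, 21.6 and 17.1 CPM. Herc6, a ligase that attaches Isg15 to proteins in the mouse, ranged from 13.6 to 21.8 CPM and Usp18, which removes Isg15 and dampens receptor signalling, from 4.84 to 15.4 CPM, both lowest in library 4.

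The remaining members gave the highest levels and the exceptions. Ifi27l2a was at 479, 473, 539.5 and 179 CPM, a 3.01-fold range in which only libraries 1 and 2 overlapped. Bst2, which encodes the virus-retaining membrane protein tetherin, was at 146, 217, 206 and 140.2 CPM, so that libraries 1 and 4 overlapped. Sp100, a component of nuclear bodies, was at 147, 97.6, 69.4 and 51.3 CPM (2.86-fold). Rtp4, which encodes a receptor-transporter protein, was at 78.1, 126, 86.0 and 44.3 CPM (2.84-fold). Neither gene showed an overlap. Ifi35 was the only member at 20 CPM that was not lowest in library 4: it was at 20.5, 44.8, 43.2 and 31.9 CPM, lowest in library 1. Xaf1 and Ifi44 were lowest in library 4, at 14.2 and 1.48 CPM, and Isg20, an RNA exonuclease, in library 1, at 4.45 CPM.

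Other features of the macrophages moved with the libraries. Cells with at least 3 UMIs of Timd4, a marker of resident large peritoneal macrophages, made up 7.93, 12.8, 47.7 and 52.9% of macrophages in libraries 1 to 4. Those with at least 2 UMIs of Folr2 made up 55.5, 22.6, 7.41 and 6.04%, and those with at least 3 UMIs of Ccr2, the chemokine receptor of monocytes, 11.0, 19.0, 3.32 and 5.68%. The classical monocyte list, with all 6 markers detected in every library, summed to 2707, 3478, 1141 and 449 CPM. The sums were therefore repeated within each subset. In Timd4-marked macrophages the 34 genes summed to 1866, 1788, 1536 and 843 CPM, in Folr2-marked cells to 1895, 1751, 1840 and 956, and in Ccr2-marked cells to 2307, 1852, 2040 and 1085. Library 4 was lowest in all 3 subsets with no overlap, and of the members at 20 CPM, 24 of 25 (background 49%), 21 of 23 (43.8%) and 19 of 21 (42.5%) were lowest there. Members could pass that minimum through a high library alone, and the count on mean levels was not repeated in the subsets.

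B cells and T cells of the same libraries showed a smaller gap. The sum in B cells was 1287, 1165, 1153 and 877 CPM, and in T cells 1491, 1491, 1705 and 1119 CPM. Library 4 was lowest in both, and its interval did not overlap the others. Of 14 members at 20 CPM in B cells, 9 were lowest in library 4 (35.9%) and 1, Dtx3l, was at least 2-fold apart between libraries (17.7%) and lowest in library 4 (7.75%). Of 19 in T cells, 10 were lowest in library 4 (31.9%) and 9 at least 2-fold apart (38.7%). The 2-fold count was thus close to its background, but 8 of the 19 combined both features (14.9%). In both classes a member could reach 20 CPM through a high library alone, and the count on mean levels was not repeated. The difference between the macrophage gap and the lymphocyte gap was not tested.

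**Figure D2:**
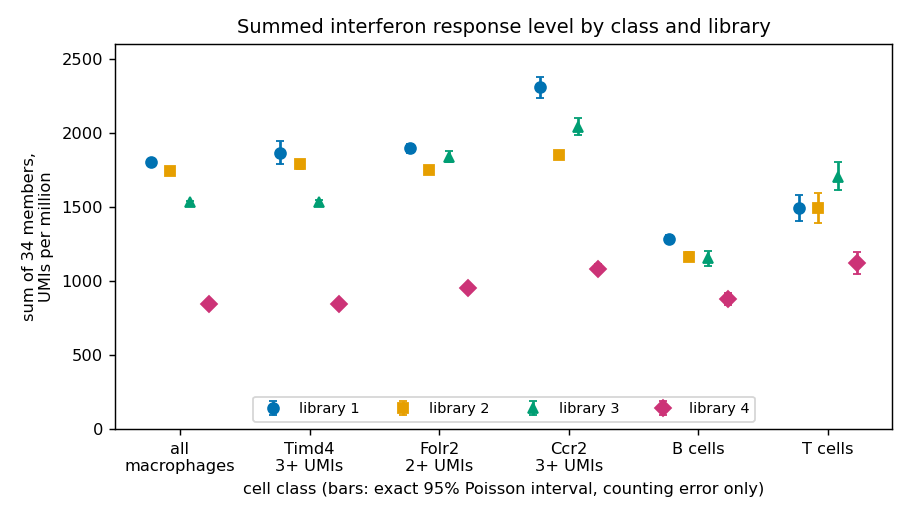
Summed level of the 34 members in CPM, by cell class and library, with bars for the exact 95% Poisson interval (counting error only). Library 4 is lowest in each of the 6 classes, at 843 CPM in all macrophages and 1119 CPM in T cells.

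In single cells the members gave a few UMIs in most macrophages and many UMIs in few. All cells were brought to 3000 UMIs by random draws, without those of lower depth (85, 55, 24 and 29 macrophages of libraries 1 to 4). The median macrophage then held 5, 5, 4 and 2 member UMIs, and the 95th percentile was 12, 11, 10 and 6. The median number of different members seen per thinned cell was 4, 4, 3 and 2. Library 4 was thus shifted down at the median as well as in the upper tail. Before thinning the medians were 12, 20, 19 and 9 UMIs, in an order that also carries each library's depth. The variance of the thinned sum was 2.40, 2.02, 2.14 and 1.72 times its mean in macrophages of libraries 1 to 4. In B and T cells it was 1.18 to 7.11 times the mean. Counting error alone would make the variance equal to the mean, so the Poisson intervals of summed levels are too narrow.

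Cells with at least 15 member UMIs in 3000 were counted as high. They numbered 35 of 1453 macrophages in library 1, a share of 2.41% (interval 1.68 to 3.33). Library 2 held 51 of 4163 (1.23%; 0.914 to 1.61), library 3 held 50 of 4310 (1.16%; 0.862 to 1.53), and library 4 held 4 of 4988 (0.0802%; 0.0219 to 0.205). The library 4 share lay below the other intervals, and those of libraries 2 and 3 overlapped. The limit cuts a continuous range: 41, 100, 68 and 10 cells held 13 to 16 member UMIs. Without thinning, 41.2, 67.4, 65.3 and 24.6% of macrophages reached 15 UMIs. Without Ifi27l2a the macrophage shares were 0.964, 0.384, 0.232 and 0.0401%. Thinning to 2000 UMIs, with the limit lowered to 10 UMIs, gave 2.48% in library 2. High B cells numbered 0, 1, 3 and 0 of 575, 553, 264 and 257, and high T cells 1, 1, 4 and 0 of 106, 98, 131 and 119. A count of 0 allows up to 0.522% (3 cells) of the library 1 B cells.

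**Figure D3:**
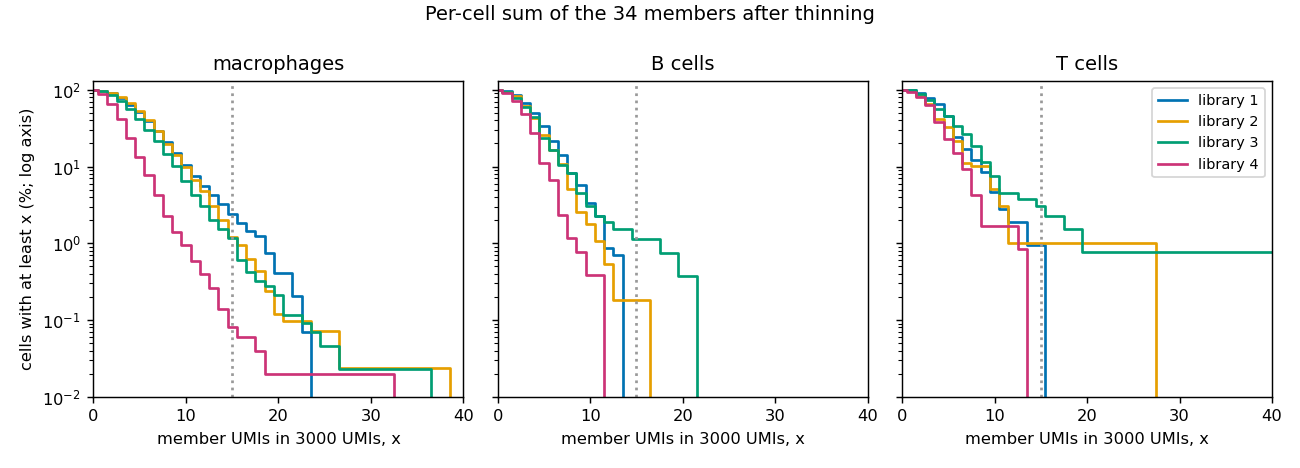
Share of thinned cells (log axis, %) with at least x member UMIs in 3000, for macrophages, B cells and T cells, 1 line per library, with a dotted line at the limit of 15. The library 4 macrophage line lies below the others up to 23 UMIs, and the library 3 T cell line runs past the plotted range to 1 cell with 63 UMIs.

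Single cells far above their class were few. A T cell of library 3 held 63 member UMIs in 3000, with the next T cell at 19, and 20 of the 34 members were detected in it. It carried 22 of the 47 UMIs of Ifit1, Ifit2, Ifit3, Ifit3b and Rsad2 in that class. Without it their summed level there was 34.9 in place of 65.3 CPM, and that of all members 1583 in place of 1705 CPM. In library 4, 1 macrophage held 32 member UMIs, with the next at 18, and 19 members were detected in it. In contrast, a T cell of library 2 with 27 member UMIs had only 2 members detected, and the highest macrophages of libraries 1 to 3 had 12 each.

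To ask whether the members rise together in the same cells, macrophages were split within each library by 5 of them, Ifit1, Ifit2, Ifit3, Ifit3b and Rsad2, and the other 29 were compared. Cells with at least 2 UMIs of the 5 in 3000, called core-high here, numbered 15, 22, 11 and 11 (1.03, 0.528, 0.255 and 0.221% of thinned macrophages). The other 29 members summed to 3834, 3084, 2995 and 2352 CPM in core-high cells and to 1757, 1716, 1515 and 833 CPM in the other macrophages. The difference was 1.13, 0.85, 0.98 and 1.5 on the log2 scale, with intervals of 1.01 to 1.24, 0.75 to 0.94, 0.85 to 1.12 and 1.32 to 1.67. Core-high cells of library 4 thus reached a level above that of ordinary macrophages in any library. A single library 4 macrophage held 76 member UMIs before thinning, 20 of them from the 5 genes. The difference there may rest in part on this cell, and the sum without it was not computed. The cells are few, so single genes rest on small counts.

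Of the 28 members with at least 1 macrophage UMI in every library (all 29 but Cxcl10), 22 were higher in core-high cells in every library, against 4.42% of 13584 such genes. At least 2-fold higher in every library were 11 of the 28 (background 0.221%), and none was lower in every library (background 25.7%). A gene with 0 UMIs in the few core-high cells always gets a negative ratio. These backgrounds therefore also carry the level of the genes, which the counts at 20 CPM limit. With 20 CPM required in the higher set, 20 members were tested and 9 were called at least 2-fold higher in every library: Isg15, Irf7, Oasl2, Usp18, Cmpk2, Parp14, Parp9, Herc6 and Trim30a. The background was 0.524% of 4772 genes. Of the 20, 19 were higher in every library by any amount (background 8.42%) and none lower (background 6.92%). A gene can pass that minimum through the core-high set alone. With 20 CPM required over both sets together, 11 members were tested, 2 were called, Parp14 and Trim30a (background 0.244%), and 10 were higher by any amount in every library (background 7.2%), and none was lower (background 7.31%). The median log2 difference of these 11 members was 0.93, 0.83, 1.07 and 1.06 in libraries 1 to 4, against -0.03, 0.06, 0.00 and -0.07 over all 4515 genes tested. The exception among the 11 was Ifi27l2a, at 0.93, 0.23, -0.63 and 1.02.

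Parp14 stood at 312, 172, 167 and 175 CPM in core-high cells against 104, 80.7, 61.6 and 47.2 CPM in the others. Trim30a stood at 318, 209, 220 and 183 CPM against 152, 101, 83.6 and 58.0 CPM. Core-high cells were higher in each library for both genes, by 1.08 to 1.8 and by 1.04 to 1.59 on the log2 scale. Isg15 was at 31.8, 73.3, 187 and 50 CPM against 7.27, 16.6, 14.2 and 7.96 CPM, from 5, 20, 28 and 6 UMIs in the core-high cells. Irf7 differed by 1.44, 1.32, 1.77 and 2.39 and Oasl2 by 1.85, 1.39, 2.10 and 2 on the log2 scale, each with intervals above 0 in all libraries. Stat2 differed by 1.63, 1.83 and 1.86 in libraries 1 to 3 and by -0.45 in library 4, where it had 1 UMI in the core-high cells. Bst2 and Sp100, well expressed in all macrophages, were higher in every library by less than 1.

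**Figure D4:**
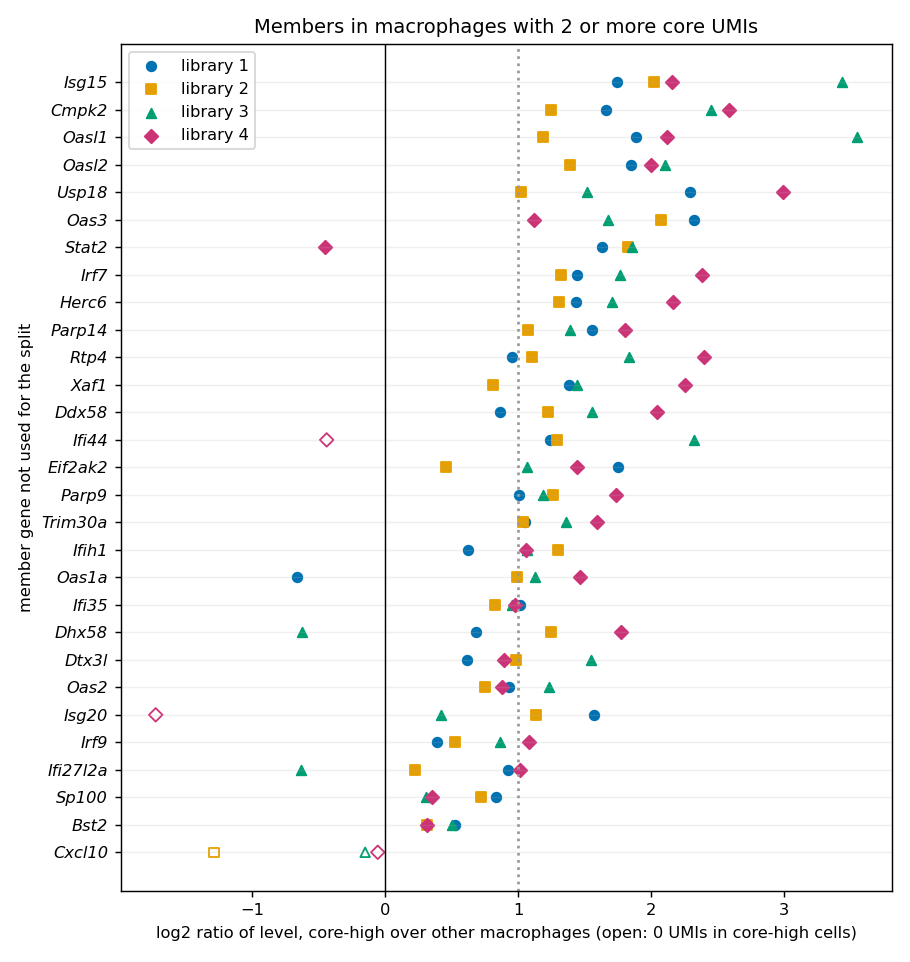
Log2 ratio of the level in core-high over other macrophages for the 29 members that the split did not use, 1 symbol per library, with lines at 0 and 1 and open symbols where the core-high cells had 0 UMIs. All 4 symbols lie right of 0 for 22 members, and Ifi27l2a, Stat2 and Cxcl10 are among those with a symbol left of it.

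Taking in every macrophage with at least 1 UMI of the 5 genes gave larger sets of 78, 199, 148 and 94 cells (5.37, 4.78, 3.43 and 1.88%). Then 27 of the 28 members with a UMI in every library were higher in every library (background 8.78%), and of 11 at 20 CPM over both sets 10 were (background 14.3%), but none was called 2-fold higher. The background of 8.78% again includes genes with few UMIs. The summed level of the 29 differed by 0.75, 0.48, 0.49 and 0.48 on the log2 scale. The share of B cells with at least 1 such UMI was 1.91, 2.17, 3.03 and 1.95% at the same thinned depth, and that of T cells 8.49, 6.12, 9.16 and 5.88%. In macrophages of library 4 the share was thus close to that of B cells, and free RNA in droplets cannot be told apart from expression for a single UMI.

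Markers of other cell types were read in the same sets. Of the neutrophil list, 4 of 5 markers (not Ly6g) had UMIs in core-high cells of library 2, where the list summed to 1128 against 118 CPM in the other macrophages. A single cell held 279 of these 308 UMIs. Without it the 29 members were at 3113 CPM in that library, a log2 difference of 0.86. The plasmacytoid dendritic cell list summed to 395, 95.2, 160 and 117 CPM in core-high cells of libraries 1 to 4. In the other macrophages it summed to 238, 83.7, 77.9 and 73.2 CPM. Of its 6 markers, Tcf4 had UMIs in core-high cells of every library, and Siglech, Ccr9 and Klk1 were at 0 there. Klk1 was also at 0 in the other macrophages of every library, and Siglech in those of libraries 1 and 4. In so few core-high cells, these counts of 0 cannot show whether plasmacytoid dendritic cells were among them.

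Outside the members, genes were ranked by their smallest difference between core-high and other macrophages over the 4 libraries. Only genes at 20 CPM or more in the core-high cells of every library were ranked, so a gene could enter through that set alone. The 12 highest were Slfn5, Phf11a, Ifi47, Ms4a6b, Ifi204, Zbp1, Slfn9, Igtp, Ifi211, Iigp1, Gbp5 and Slfn1. In the other macrophages Ms4a6b, Slfn9 and Gbp5 stayed below 20 CPM in every library. Slfn5, a member of the interferon-induced schlafen family, differed by 1.88, 1.53, 2.35 and 2.46 on the log2 scale. Ifi204, a DNA-binding p200-family protein, differed by 1.37, 1.61, 1.34 and 1.42, and Zbp1, a sensor of Z-form nucleic acid, by 1.77, 1.34, 1.79 and 1.86. Iigp1, a GTPase that acts on pathogen vacuoles and is strongly induced by interferon gamma, differed by 2.90, 2.11, 2.20 and 1.26. Several others rest on few molecules, such as Ms4a6b with 9, 8, 7 and 3 UMIs in the core-high cells.

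The rest of the pathway was read from lists by role. Of 21 interferon genes, none of the Ifna genes nor Ifnb1 had a UMI in macrophages of any library, and Ifnk, Ifnz and Ifng together had 2, 2, 6 and 4 UMIs. A count of 0 allows up to 0.0445 CPM in library 4 and 0.226 CPM in library 1 (3 UMIs). Ifng reached 1.36, 5.07, 4.17 and 12.3 CPM in T cells. The 7 receptor and kinase genes were all detected, summing to 823, 647, 542 and 541 CPM, and none was called in core-high cells or higher there in every library. Ifnar2 stood at 126, 157, 189 and 175 CPM and Ifnar1 at 64.7, 44.5, 32.2 and 33.3 CPM. Ifnar1 was thus highest in library 1 and Ifnar2 lowest there, and neither chain was lowest in library 4. Of the 7 genes, 1 was lowest in library 4 (background 46.4%).

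Of 6 further transcription factors, none was called in core-high cells. Of 13 sensors and adaptors matched (Mb21d1 and Tmem173 were not matched), 7 were tested in core-high cells and 1, Zbp1, was called. Of 48 other interferon-stimulated genes matched, 38 were tested and 8 called higher (Ifi204, Ifi207, Ifi211, Phf11a, Phf11b, Slfn1, Slfn5 and Helz2), none lower, and 28 of the 38 were higher in every library by any amount. Of 16 interferon-gamma-induced GTPases matched, 9 were tested and 5 called (Iigp1, Igtp, Irgm2, Ifi47 and Gbp5). Of the 4 inhibitors tested, none was called. The backgrounds for these counts are the 0.524 and 8.42% of genes given above. With 20 CPM required over both sets together, 6 of 27 other interferon-stimulated genes were called (Ifi204, Ifi207, Ifi211, Phf11b, Slfn1 and Slfn5), 2 of 5 GTPases (Iigp1 and Ifi47) and 1 of 6 sensors (Zbp1), against the background of 0.244%. Across libraries, 23 of 41 of the other interferon-stimulated genes at 20 CPM were lowest in library 4 (background 46.4%) and 25 of 41 were at least 2-fold apart (background 30.7%). Of 8 GTPases at that level, 6 were lowest in library 4 and 6 were at least 2-fold apart.

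Lymphocytes were compared with macrophages of the same library. Of 14 members at 20 CPM in B cells or macrophages in every library, 1 was at least 2-fold higher in B cells in all 4 libraries, Sp100 (background 9.48%), and 3 were lower, Bst2, Rtp4 and Ifih1 (background 16.1%). Sp100 was at 297, 198, 206 and 173 CPM in B cells against 147, 97.6, 69.4 and 51.3 CPM in macrophages. Rtp4 was at 6.87, 7.86, 6.61 and 6.60 CPM in B cells against 78.1, 126, 86.0 and 44.3 CPM, a log2 difference of -3.49, -3.98, -3.65 and -2.70. Bst2 was at 57.6, 77.1, 65 and 47.2 CPM in B cells, lower by 1.34 to 1.66 on the log2 scale. Ifih1 was at 6.87, 5.17, 1.65 and 2.54 CPM, from 3 to 46 UMIs. The minimum applied to the higher class only, so Rtp4 and Ifih1 passed it through macrophages alone. The counts of 1 and 3 of 14 lay near their backgrounds. By any amount 2 members were higher in every library (background 38.8%) and 7 lower (background 40%). At a mitochondrial limit of 5%, Sp100 was no longer called.

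T cells gave 1 of 15 members higher, again Sp100, at 377, 223, 212 and 240.05 CPM (background 11.2%), and 2 lower, Rtp4 and Eif2ak2 (background 13.8%). Rtp4 was at 27.2, 25.3, 34.7 and 9.85 CPM and Eif2ak2 at 17.7, 22.0, 11.1 and 9.85 CPM in T cells. Both counts of 15 lay near their backgrounds, and a member could again pass the minimum through 1 class alone. By any amount 3 were higher (background 44.1%) and 4 lower (background 30.4%). At the 5% mitochondrial limit none was called lower. Irf7 was at 2.84, 4.55, 7.72 and 3.05 CPM in B cells and at 27.2, 25.3, 50 and 17.2 CPM in T cells, with macrophages between 19.1 and 37.3 CPM. Of the macrophage list, B cells held 874 to 1518 CPM and T cells 1215 to 2330 CPM, against 35925 to 61900 CPM in macrophages. Its part in the lymphocyte levels was not tested.

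**Figure D5:**
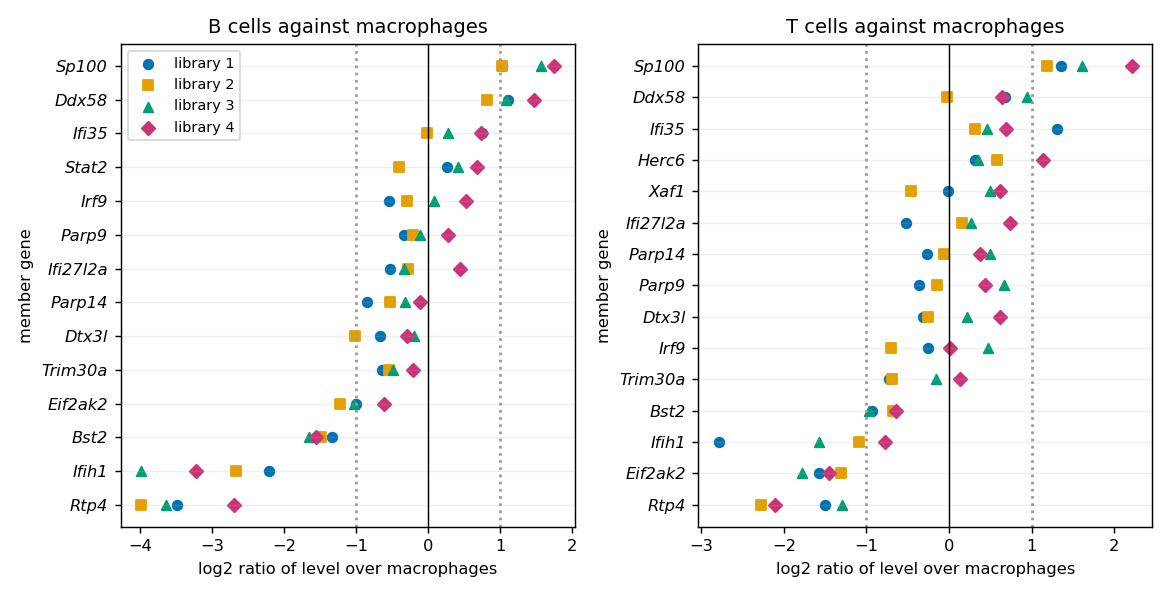
Log2 ratio of the level in B cells (left, 14 members) and T cells (right, 15 members) over macrophages of the same library, 1 symbol per library, with lines at 0 and at 1 and -1. Sp100 lies right of 1 and Rtp4 left of -1 in all 4 libraries of both panels.

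Among macrophages, the members were compared across the Timd4, Folr2 and Ccr2 splits. None of 12, 13 and 13 members tested was 2-fold higher or lower in every library. The background was 0.0639, 0.103 and 0.123% of genes higher and 0.0853, 0.062 and 0.246% lower. With backgrounds this low, counts of 0 show nothing particular to the members. The summed level of the 34 genes in Timd4-marked cells differed from that in the other macrophages by 0.06, 0.05, 0.01 and -0.00 on the log2 scale. In Folr2-marked cells the difference was 0.20, 0.01, 0.29 and 0.20, and in Ccr2-marked cells 0.42, 0.11, 0.43 and 0.39. The splits overlap: 139 Timd4-marked cells of library 4 were also Folr2-marked.

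The Ccr2 difference was mostly that of Ifi27l2a, which was at 932, 601, 960.5 and 356 CPM in Ccr2-marked cells against 405, 441, 523 and 168 CPM in the others, higher by 1.20, 0.45, 0.88 and 1.09 on the log2 scale. Without Ifi27l2a the sum in Ccr2-marked cells was 1375, 1251, 1080 and 729 CPM, beside 1322, 1268, 992 and 663 CPM in all macrophages. Parp14, Parp9 and Dtx3l were also higher in Ccr2-marked cells in every library, 4 of 13 members in all (background 23.5%). In Timd4-marked cells Irf7 was higher in every library, by 0.83, 0.39, 0.49 and 0.18, with Bst2 and Ifi35, 3 of 12 members (background 23.5%). Rsad2, under the 20 CPM minimum, was at 23.0, 13.5, 6.26 and 3.87 CPM in Timd4-marked cells. In the others it was at 9.89, 4.95, 4.68 and 2.73 CPM, with intervals of the ratio above 0 in all 4 libraries. The library 1 value rests on 26 UMIs. Such intervals were not counted over all genes, so the difference is not read as particular to Rsad2. In Folr2-marked cells 7 of 13 members were higher by any amount, near the background of 43.8%, and none was lower (background 8.99%).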

How the data were processed

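The deposited matrix holds UMI counts of 26811 barcodes over 31253 genes and comes from Cell Ranger 5.0.1, per the file headers. CASAVA 1.8, Seurat and the mm10 build appear in the submitters' processing notes. No source used here gives the counting settings, intron use, annotation or any removal of free RNA. UMI counts of a 3' kit are not divided by gene length, so levels are UMIs per 1000000 of the summed counts of a class (CPM). Classes were set by counts of marker genes, with no clustering. The members, lists and limits were chosen with earlier results of these data known.

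Levels come from sums within a library, with a prior count of 0.5 in log2 ratios. For the ratios of core-high cells the 5 core genes were left out of the totals. A call needed 20 CPM in the higher set and a 2-fold ratio in 1 direction in every library. Named with all values were the 12 members with the highest mean level and the 8 with the widest range. So were the 12 other genes with the largest smallest core-high ratio, among genes at 20 CPM in core-high cells of every library. Isg15, the core genes, the sensors and a few pathway genes were added after their values were seen. Cells were thinned without replacement with a fixed seed. The functions for ratios and calls were tested on simulated counts, and thinning was checked on the macrophage counts. The other functions, with that for the counts across libraries, had no such test. Totals were 40321459 to 78083803 UMIs per library. Scrublet, run by scanpy 1.11.5, marked 72 of 5547, 1 of 6518, 0 of 5607 and 2 of 6414 barcodes. At under 0.5% in libraries 2 to 4 it has not worked there, so doublets were not removed. Python 3.11.15, numpy 2.4.6, scipy 1.17.1 and pandas 2.3.3 were used. Alternatives covered the filters, class rule, thinning, limits, minimum level, prior count, centring and libraries left out; 4 were chosen after seeing the data.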

Additional observations from a re-analysis of the deposited data

How the results depend on the processing

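The order in which library 4 had the lowest summed level held in 8 of 8 settings, with the next library 1.5 to 1.83 times higher, and library 4 had the lowest share of high cells in 10 of 11 settings. The exception was a limit of 25 UMIs, where the shares were 0, 0.0721, 0.0464 and 0.0200% in libraries 1 to 4. Without Ifi27l2a the summed levels were 1322, 1268, 992 and 663 CPM and the shares of libraries 1 to 3 were 0.964, 0.384 and 0.232%. Without Bst2, Ifi27l2a, Sp100 and Isg20 the levels were 1025, 946, 702 and 462 CPM and the shares 0.551, 0.192, 0.139 and 0.0200%. As means of per-cell CPM the levels were 1754, 1759, 1511 and 829.7, so that libraries 1 and 2 changed places. With mitochondrial, ribosomal protein, Lyz2 and Apoe UMIs left out of the totals, chosen after seeing the data, they were 2337, 2420.2, 2191 and 1278 CPM. A mitochondrial limit of 5% gave 1909 and 1549 CPM in libraries 1 and 3. The share was 41.2, 67.4, 65.3 and 24.6% without thinning and 10.5, 9.85, 6.50 and 0.962% from 10 UMIs. It was 2.48% in library 2 after thinning to 2000 UMIs with a limit of 10 UMIs.

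Of the 9 members called in core-high cells, 0 were called from 1 core UMI and 2 with 20 CPM over both sets together (chosen after seeing the data). The count of members 2-fold apart between libraries, 16, was 9 after centring on the median gene, and 6 to 16 with 1 library left out. The B cell counts of 1 higher and 3 lower became 0 higher at a mitochondrial limit of 5% and without Sp100 and the 3 others, 8 lower at 5 CPM, and 1 to 2 higher and 3 to 6 lower with 1 library left out. The T cell counts of 1 higher and 2 lower became 0 lower at a mitochondrial limit of 5%, 0 higher without Sp100 and the 3 others, 2 higher and 4 lower at 5 CPM, and 2 to 4 lower with 1 library left out. For the counts that fell without Sp100 and the 3 others, fewer members were tested; in the other settings the cause was not tested. No paired analysis was possible because each group has 1 sample with the number 1 and no label ties a barcode suffix to a sample. Members under 10 CPM, the lymphocyte classes and the 11 to 22 core-high cells of a library rest on few UMIs or cells.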
